A study of Mus musculus with 13 samples.

Results

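The transcripts of 297 single CD8+ T cells, 154 taken at day 5 and 143 at day 3 of an infection and sorted into no further subset, were compared gene by gene. They are 2 of the 13 populations of a single-cell quantitative PCR study of 1449 cells, and were chosen by the population name that heads each cell's column. Both populations were splenic OT-1 cells, CD45.1+ donor T cells with a transgenic receptor for an ovalbumin peptide, in C57BL/6J recipients infected intravenously with 5000 colony-forming units of Listeria monocytogenes expressing ovalbumin. The recipients of day 3 cells had been given 20000 OT-1 cells and those of day 5 cells 5000, so that the day and the number of cells transferred cannot be told apart. Each day is 1 sample, and the labels do not say how many mice it came from. No test between the days was therefore possible, no p-value is given, and genes are singled out by how large their difference was.

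An antigen-stimulated naive CD8+ T cell first enlarges and divides rapidly under growth regulators such as Myc, with interleukin-2 and its high-affinity receptor among the early products, and then acquires effector genes for chemokines, cytotoxicity and migration to inflamed tissue. Transcription factors of naive and memory cells, Tcf7 among them, are reduced in cells that become effectors, whereas Zeb2 and Prdm1 are known for driving terminal effector differentiation. The comparison asks which transcripts differed in frequency or amount between them.

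The 95 assay rows covered 94 genes. A value of 0 stands for no detection, and values above 0 count PCR cycles in the direction of more RNA, so that 1 cycle is about a doubling. The share of a population is the percentage of its cells with a value above 0, given with an exact (Clopper-Pearson) 95% interval that covers counting error only. Where no cell had the transcript, the limit in its place is the share that 3 cells of the total would make, which is below the exact upper bound (2.55% for 143 cells, 2.37% for 154). A day 3 cell had a median of 16 assays above 0 (range 4 to 29) and a day 5 cell 19 (9 to 35). Among markers of the labelled cell type, Ptprc, encoding CD45, was found in 94.4% of day 3 and 99.4% of day 5 cells, and the markers of other T cells Cd4 and Foxp3 in 0 of 143 and 0 of 154 (which allows shares of up to 2.10% and 1.95%). Gata3, also listed as a marker of other T cells, was found in 2 day 3 and 8 day 5 cells (1.40% and 5.19%). Klrc1, listed as a marker of natural killer cells, was found in 1.40% and 18.2%. Cd8a was found in 27.3% and 57.8% and Cd44 in 3.50% and 7.14% of these cells, although antibodies to both proteins were in the sorting stain (gates not given), so an undetected transcript is not shown to be absent. No assay of a myeloid or B cell marker was in the panel. Interleukin-2 was measured by 2 assay rows, and both found it in the same 11 day 3 cells with a median difference of 0.67 cycles and a largest one of 1.82.

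The columns of each population came in consecutive stretches of unequal height, and each was also divided by file order into an earlier and a later part (71 and 72 cells at day 3, 77 and 77 at day 5). Which array held which cell is not given in the sources used here. Later columns had higher values in detected cells but fewer assays above 0 (median 15 against 18 per cell at day 3, 16 against 21 at day 5). Between the parts of 1 population, 5 of 95 assays at day 3 and 7 at day 5 had shares at least 20 percentage points apart. Below, the range of a difference is over the 4 pairings of an earlier or later day 5 part with an earlier or later day 3 part.

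The chemokine Ccl5, galectin-1 (Lgals1) and the chemokine receptor Cxcr3 were found in few day 3 cells and in most day 5 cells, and the quiescence factor Klf2 in a minority and in nearly every cell. The naive and memory factor Tcf7 was found in most day 3 cells and few day 5 cells. Myc, Tox and the lymph node homing receptor Ccr7 were found in 35.7 to 45.5% of day 3 cells and 4.55 to 5.19% of day 5 cells. Of the 95 assays, 12 (12.6%) were found in at least 20 points more day 5 cells and 9 (9.47%) in at least 20 points fewer, and 44 differed by less than 5 points. The median difference over all 95 assays was 0 points. In the 4 pairings of column parts, 8 of the 12 and 5 of the 9 kept a difference of at least 20 points each time. Counting only values of at least 12 as detection gave 11 (11.6%) higher and 7 (7.37%) lower.

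**Figure D1:**
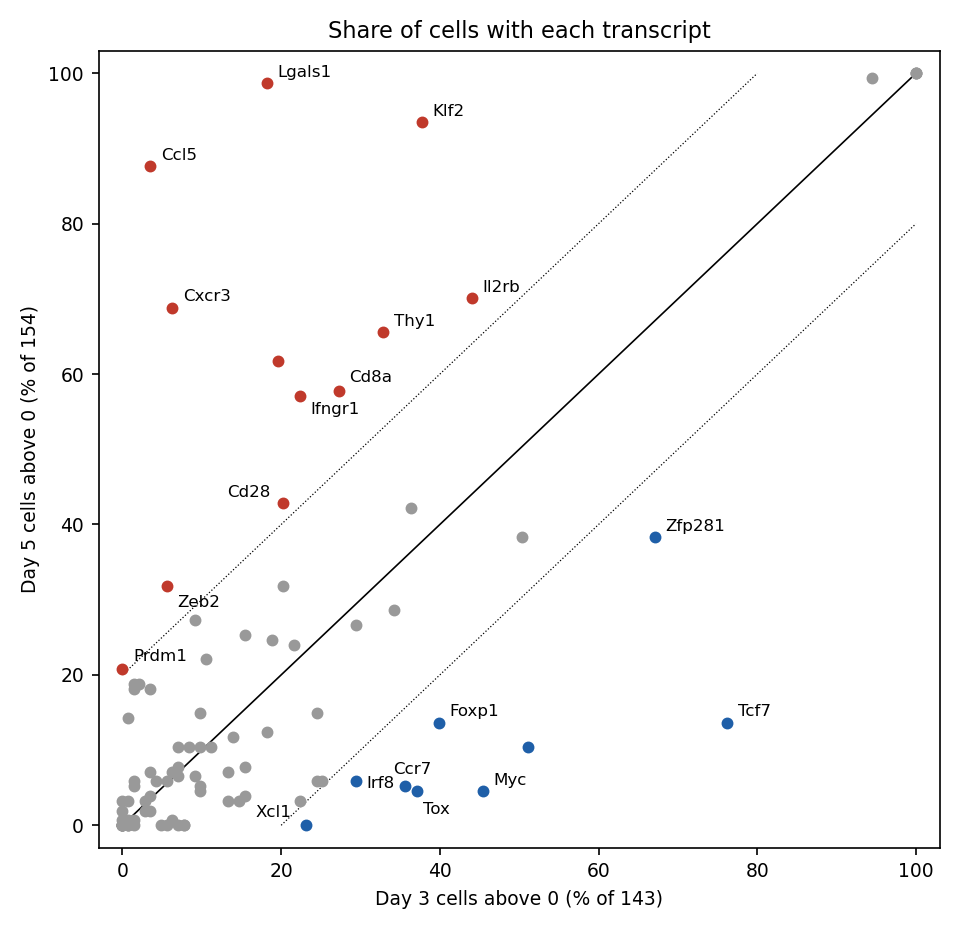
Share of cells above 0 at day 3 (x axis, percent of 143 cells) and day 5 (y axis, percent of 154 cells), with 1 point per assay. Points beyond the dotted lines differ by at least 20 percentage points: 12 lie above (red; 11 labelled), with Lgals1, Ccl5, Klf2 and Cxcr3 farthest from the diagonal, and 9 below (blue; 8 labelled), with Tcf7 farthest.

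Tcf7, which encodes the factor TCF-1 of naive and memory T cells, had the largest difference among the genes found less often at day 5. Tcf7 transcripts were present in 109 of 143 day 3 cells (76.2%, 68.4 to 82.9%) and 21 of 154 day 5 cells (13.6%, 8.64 to 20.1%), a difference of -62.6 points (pairings -68.4 to -56.8). Among day 3 cells with the transcript, the lowest value was 11.8, the median 17.2 and the highest 19.4, and at day 5 these were 9.60, 15.0 and 18.0. The ranges of the days overlapped in the cells that had Tcf7, but the day 5 median was 2.17 cycles lower (pairings -3.2 to 0.43). The number of such cells differed as well.

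Foxp1, a forkhead factor that helps keep naive T cells quiescent, was found in 57 day 3 cells (39.9%, 31.8 to 48.4%) and 21 day 5 cells (13.6%, 8.64 to 20.1%). Its difference of -26.2 points ran from -42.7 to -9.87 between pairings, since its share differed between column parts as well. The other forkhead factors did not follow it: Foxo1 was found in 29.4% and 26.6% of cells and Foxo3 in 9.79% and 14.9%. The zinc finger factor Zfp281 was found in 96 day 3 cells (67.1%, 58.8 to 74.8%) and 59 day 5 cells (38.3%, 30.6 to 46.5%), with pairings from -42.4 to -15.2 points. Tox, an HMG-box factor known from thymic selection and exhausted T cells, was found in 53 day 3 cells (37.1%, 29.1 to 45.5%) and 7 day 5 cells (4.55%, 1.85 to 9.14%). Its difference was -32.5 points (pairings -41.0 to -24.2).

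Klf2 differed in the direction opposite to Tcf7, although both belong to the naive and memory factors. Klf2 keeps lymphocytes quiescent and sustains the receptors that let them recirculate. It was found in 54 day 3 cells (37.8%, 29.8 to 46.2%) and 144 day 5 cells (93.5%, 88.4 to 96.8%), a difference of 55.7 points (pairings 45.2 to 66.4). Of the 10 measured members of the naive and memory factor list, 1 was at least 20 points higher (Klf2), 2 were at least 20 points lower (Tcf7 and Foxp1) and 7 lay closer, with a median difference of -2.52 points. Beside this, 12.6% of all 95 assays were higher and 9.47% lower by that much, with a median of 0 points. This list and those below were chosen with earlier results of these data known, so such contrasts are description only. Among the 7, Lef1, a partner of Tcf7 in naive cells, was found in 13.99% and 11.7% of cells, and the T-box factor Eomes in 20.3% and 31.8%. Id3, an inhibitor of E proteins, was found in 8 day 3 cells and 0 of 154 day 5 cells (up to 1.95%), with 6 of its 8 values under 12.

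Among the receptors, Ccr7, which guides T cells into lymph nodes, was found in 51 day 3 cells (35.7%, 27.8 to 44.1%) and 8 day 5 cells (5.19%, 2.27 to 9.98%). Pairings of its difference ran from -35.7 to -25.4 points. Cxcr3, a receptor for interferon-induced chemokines, went the other way, from 9 day 3 cells (6.29%, 2.92 to 11.6%) to 106 day 5 cells (68.8%, 60.9 to 76.0%), a difference of 62.5 points (52.7 to 72.4). In the few day 3 cells that had Cxcr3, its median value was 16.6, close to the 17.5 of day 5 cells. Il7r, the interleukin-7 receptor chain of naive and memory cells, was scarce on both days (9.09% and 6.49%).

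**Figure D2:**
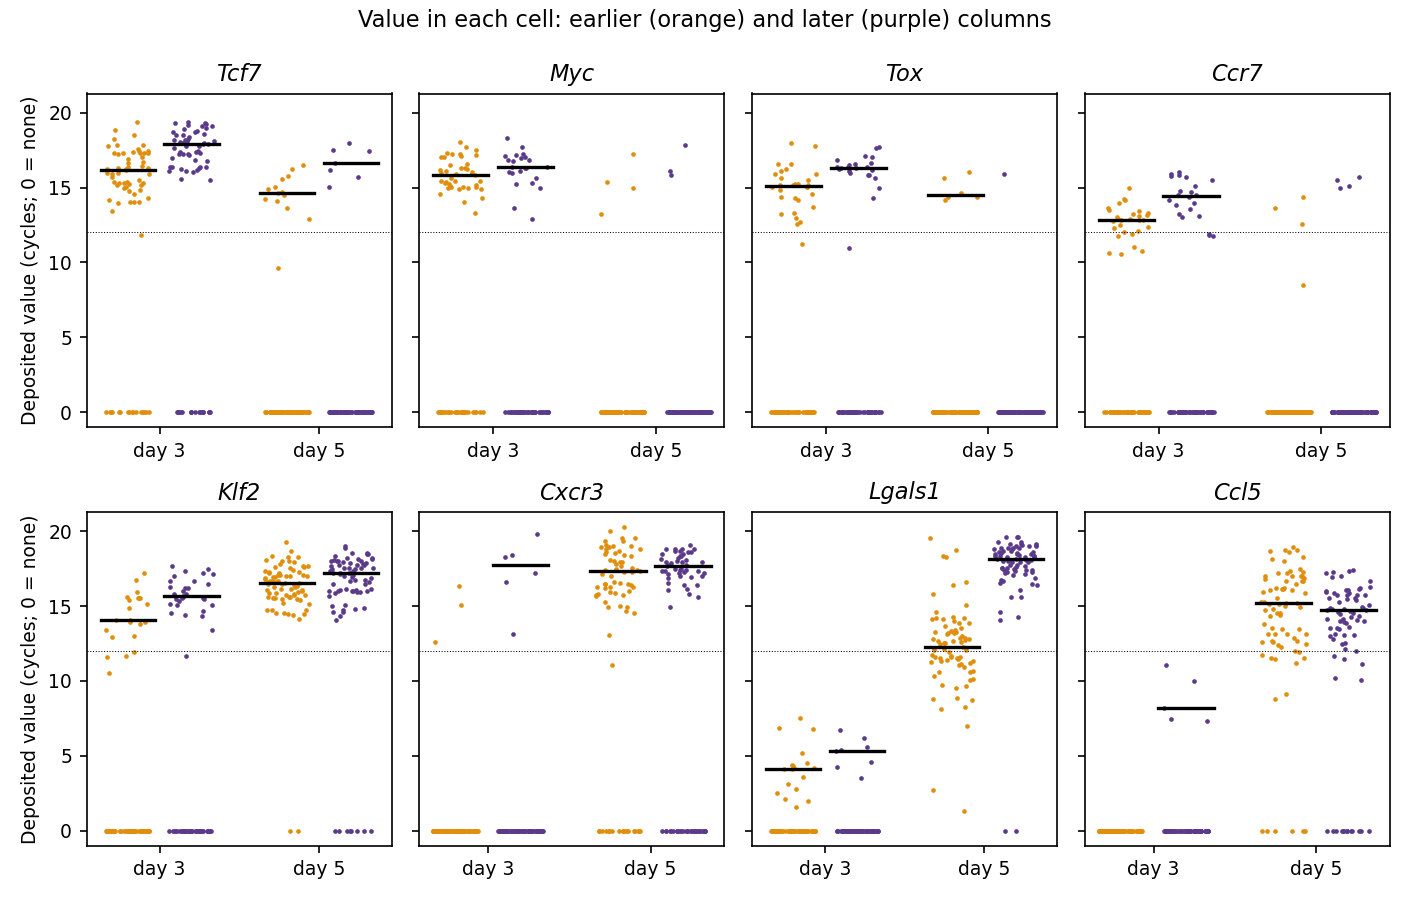
Deposited value of 8 genes in every day 3 and day 5 cell (cycles, 0 for no detection), with the earlier columns of each population in orange, the later in purple, and the median of detected cells as a black bar where at least 5 cells had the transcript. The dotted line marks a value of 12. Tcf7, Myc, Tox and Ccr7 have few cells above 0 at day 5, Klf2 and Cxcr3 have many, and the values of Lgals1 and Ccl5 at day 3 lie below the line.

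Of the transcripts of early activation, Myc differed most. Myc was found in 65 day 3 cells (45.5%, 37.1 to 54.0%) and 7 day 5 cells (4.55%, 1.85 to 9.14%), a difference of -40.9 points. The range over pairings, -55.3 to -26.7, reflects its uneven share within day 3, where 59.2% of the earlier and 31.9% of the later columns had it. The median value in Myc-positive cells was 16.0 at day 3 and 15.8 at day 5, close to each other in the few cells left to compare at day 5.

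Il2ra, the alpha chain of the high-affinity interleukin-2 receptor, was frequent on both days. The transcript was present in 72 day 3 cells (50.3%, 41.9 to 58.8%) and 59 day 5 cells (38.3%, 30.6 to 46.5%), a difference of -12.0 points (-22.6 to -1.59). Il2rb, the signalling chain that the receptors of interleukin-2 and interleukin-15 share, was found more often at day 5, in 70.1% (62.2 to 77.2%) against 44.1% (35.8 to 52.6%). Its difference of 26.1 points ran from 14.7 to 37.5. The cytokine itself, Il2, was found in 11 day 3 cells (7.69%, 3.90 to 13.3%) and 0 of 154 day 5 cells (up to 1.95%). Of the 3 genes, Il2rb alone passed 20 points.

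Of the interferon regulatory factors of activated cells, Irf8 passed 20 points and Irf4 did not. Irf8 was found in 42 day 3 cells (29.4%, 22.1 to 37.6%) and 9 day 5 cells (5.84%, 2.71 to 10.8%), a difference of -23.5 points (-28.6 to -18.5). Irf4, induced in proportion to receptor signal strength, was found in 35 and 9 cells, a difference of -18.6 points, just short of 20. Of those 35 day 3 values 23 were under 12, and with values of at least 12 alone the shares were 8.39% and 5.84%. The lectin Cd69, a surface marker of recent stimulation, also lay just short, with 25.2% (18.3 to 33.1%) against 5.84% (2.71 to 10.8%). The costimulatory receptor Tnfrsf9 (4-1BB) was found in 15.4% and 3.90% of cells. The kinase gene Mtor was found in 15.4% and 7.79%, the glycolytic enzyme gene Hk2 in 3.50% and 1.95%, and the signalling factors Rela (36.4% and 42.2%) and Nfatc2 (6.29% and 7.14%) were about as frequent on both days. Of the 13 assay rows of the early activation and growth list, 0 were at least 20 points higher at day 5, 2 at least 20 points lower (Myc and Irf8), and 11 of the 13 differed in the lower direction by some amount, as did 42 of all 95 assays. The median difference of the list was -7.69 points, beside 0 over all 95 assays.

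The inducible chemokines, made within hours of receptor stimulation to draw in other cells, had a lower share at day 5 by some amount in each of the 4 assays of their list, with a median difference of -15.3 points, but 1 of the 4, Xcl1, passed 20 points. Of all 95 assays, 42 were lower by some amount and 9 (9.47%) by at least 20 points, with a median of 0 points. Xcl1, which attracts cross-presenting dendritic cells, was found in 33 day 3 cells (23.1%, 16.4 to 30.9%) and 0 of 154 day 5 cells (up to 1.95%). Ccl4 was found in 32 and 5 cells (22.4% and 3.25%), a difference of -19.1 points, and Ccl3 in 21 and 5 cells (14.7% and 3.25%). Cxcl10, a ligand of Cxcr3, was found in 10 day 3 cells (6.99%, 3.40 to 12.5%) and 0 of 154 day 5 cells. The windows from 250 bases before to 50 bases after the start site of 3 of these genes are shown as examples of the list. They are from RefSeq, build GRCm38.p6, all on the minus strand and printed 5′ to 3′: Ccl3 at chr11:83649329-83649628, Xcl1 at chr1:164935473-164935772 and Cxcl10 at chr5:92348840-92349139.
Ccl3: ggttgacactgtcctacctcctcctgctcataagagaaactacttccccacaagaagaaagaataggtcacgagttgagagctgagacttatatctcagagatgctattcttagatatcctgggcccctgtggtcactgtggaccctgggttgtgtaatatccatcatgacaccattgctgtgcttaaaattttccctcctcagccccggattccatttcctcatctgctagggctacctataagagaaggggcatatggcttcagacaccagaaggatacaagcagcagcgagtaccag
Xcl1: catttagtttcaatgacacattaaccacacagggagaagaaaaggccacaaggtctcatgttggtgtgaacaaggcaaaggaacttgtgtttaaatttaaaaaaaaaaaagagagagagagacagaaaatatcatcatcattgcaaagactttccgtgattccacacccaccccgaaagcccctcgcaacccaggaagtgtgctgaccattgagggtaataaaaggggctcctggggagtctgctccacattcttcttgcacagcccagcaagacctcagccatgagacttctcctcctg
Cxcl10: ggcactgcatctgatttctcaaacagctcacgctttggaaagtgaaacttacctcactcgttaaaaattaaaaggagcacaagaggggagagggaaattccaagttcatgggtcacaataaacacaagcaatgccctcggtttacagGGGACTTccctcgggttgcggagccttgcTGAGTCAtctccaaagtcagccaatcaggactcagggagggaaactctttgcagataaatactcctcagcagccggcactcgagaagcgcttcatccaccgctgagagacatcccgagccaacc
Capitals mark matches, on either strand, to GGGANTT (the first part of an NF-κB site), CACGTG (an E-box, as bound by Myc), AGGTGT (a T-box core) or TGACTCA (AP-1). Cxcl10 held 1 NF-κB and 1 AP-1 match, beginning 103 and 74 bases before the start site and not overlapping, and Ccl3 and Xcl1 held no match in these windows. Of 32851 windows of this length in the table, 16.5% held the first of the motifs, 7.15% the E-box, 13.7% the T-box core and 5.20% the AP-1 motif.

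Ccl5 is a chemokine like Ccl3 and Ccl4 but is known to be expressed late in the T cell response, and here it had the largest difference of the panel. It was found in 5 day 3 cells (3.50%, 1.14 to 7.97%) and 135 day 5 cells (87.7%, 81.4 to 92.4%), 84.2 points apart (pairings 76.2 to 92.2). The 5 day 3 values were all under 12, whereas 77.9% of day 5 cells had a value of at least 12. Lgals1, encoding the carbohydrate-binding protein galectin-1 of activated T cells, was found in 26 day 3 cells (18.2%, 12.2 to 25.5%) and 152 day 5 cells (98.7%, 95.4 to 99.8%). The 26 day 3 values had a median of 4.26 and all lay under 12, against a day 5 median of 15.9 (lowest 1.27, highest 19.6). With values of at least 12 alone, the shares of Lgals1 were 0% and 76.6%. The height of Lgals1 differed within day 5, with a median of 12.2 in the earlier and 18.1 in the later columns, both above the day 3 median.

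Other effector genes were found in a minority of day 5 cells. The natural killer receptor gene Klrc1 (NKG2A) was found in 2 day 3 and 28 day 5 cells (1.40% and 18.2%), and the granzyme B inhibitor Serpinb9 in 2 and 29 cells (1.40% and 18.8%), of which 16 day 5 values were under 12. Serpinb9 was also found in 24 of 144 first-division cells (16.7%). The inhibitory receptor gene Klrg1, high in short-lived effectors, was seen in 1 day 3 cell and 22 day 5 cells (14.3%, 9.17 to 20.8%). These 3 differences of 13.6 to 17.4 points fell short of 20. The cytotoxic protease gene Gzmb was about equally frequent, in 21.7% (15.2 to 29.3%) and 24.0% (17.5 to 31.6%) of cells, and the cytokine gene Ifng was found less often at day 5 (13.3% and 3.25%). Of the 9 measured members of the effector and cytotoxic list, 4 were at least 20 points higher (Ccl5, Lgals1 and Cxcr3 among them), 0 lower and 5 closer, with a median difference of 17.4 points. Over all 95 assays, 12.6% were at least 20 points higher and 9.47% lower, with a median of 0 points. Because the list was chosen with earlier results of these data known, this contrast is no separate evidence.

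Zeb2 and Prdm1 were the effector transcription factors at least 20 points higher. Zeb2 was found in 8 day 3 cells (5.59%, 2.45 to 10.7%) and 49 day 5 cells (31.8%, 24.6 to 39.8%), a difference of 26.2 points (18.8 to 33.6). Prdm1, which encodes Blimp-1, was found in 0 of 143 day 3 cells (up to 2.10%) and 32 day 5 cells (20.8%, 14.7 to 28.05%), with 20.8% in each column part of day 5. Stat4, which transmits interleukin-12 signals, was found in 15.4% and 25.3% of cells, but its pairings ran from -10.96 to 30.7 points, negative in the pairing of later day 5 with earlier day 3 columns and positive in the other 3. Tbx21 (T-bet) was found in 1 cell of each day and Id2 in 0 of 143 and 0 of 154, so these assays compared nothing. Of the 8 measured effector factors, 2 were at least 20 points higher and 1, Irf8, at least 20 points lower, with a median of 0.82 points. The shares over all 95 assays were 12.6% higher and 9.47% lower, with a median of 0 points.

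The remaining genes found more often at day 5 encode surface proteins. Ifngr1, the ligand-binding chain of the interferon-gamma receptor, was found in 22.4% (15.8 to 30.1%) and 57.1% (48.9 to 65.1%) of cells. Thy1, a pan-T-cell glycoprotein, was found in 32.9% (25.2 to 41.2%) and 65.6% (57.5 to 73.0%), and the coreceptor Cd8a in 27.3% (20.2 to 35.3%) and 57.8% (49.6 to 65.7%). Between pairings, Ifngr1 ran from 12.6 to 57.01 points and Thy1 from 9.48 to 55.8, while Cd8a stayed between 26.8 and 34.3. The costimulatory receptor Cd28 was found in 20.3% and 42.9% of cells (20.3 to 24.8 points), but 15 of its 29 day 3 and 24 of its 66 day 5 values were under 12. With a limit of 14 the Cd28 difference turned to -0.90 points. Just below 20 points lay the MAP kinase genes Mapk14 (9.09% and 27.3%) and Mapk3 (2.10% and 18.8%) and the runt factor Runx2 (3.50% and 18.2%).

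Beyond the number of positive cells, the height of the value in positive cells was compared in the 39 assays with at least 10 such cells on each day. The median value was at least 1 cycle higher at day 5 in 11 (28.2%) and at least 1 cycle lower in 7 (17.9%), with a median difference of 0.32 cycles. Lgals1 (11.67 cycles) had the largest difference. Among the others were Lef1 (3.88 cycles), the proteasome subunit Psmb7 (3.60), the tumour necrosis factor receptor Tnfrsf1b (2.66), Stat4 (1.89) and Foxo1 (1.40). Many day 3 values were under 12: all 26 of Lgals1, 15 of 20 of Lef1, 36 of 49 of Psmb7 and 6 of 14 of Tnfrsf1b. For Stat4 it was 1 of 22 and for Foxo1 3 of 42. With values of at least 12 alone, 5 assays were at least 1 cycle higher and 4 lower. The lowest were the mitochondrial autophagy receptor Bnip3l (-2.18 cycles), Tcf7 (-2.17) and Foxp1 (-1.65). Of the day 5 values, 28 of 34 of Bnip3l were under 12, against 1 of 21 of Tcf7 and 3 of 21 of Foxp1. Also lower were the ribosomal gene Rpl35 (-1.27), the adaptor Grap2 (-1.25), Mapk14 (-1.16) and Foxo3 (-1.02).

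The references Actb, Gapdh and 18S ribosomal RNA, present in 100% of cells of both days, were themselves higher at day 5 by 1.72, 0.99 and 1.01 cycles. Over the pairings these differences ran from 1.08 to 2.11, from -1.01 to 2.65 and from 0.26 to 1.74. Gapdh varied widely between cells, from 2.52 to 18.7 at day 3 and from 1.82 to 18.5 at day 5. It reached 12 in 81.8% and 85.1% of cells, which limits centring on it. The pan-leukocyte gene Ptprc (1.10 cycles) and Klf2 (1.27) lay near that shift. After each cell was centred on its own Actb and Gapdh, Klf2 differed by 0.0033 cycles and Ptprc by -0.57, Lgals1 by 10.51 and Tcf7 by -2.24, and 6 assays (15.4%) were at least 1 cycle higher and 19 (48.7%) lower, 64.1% in all. Within day 3, the later columns were at least 1 cycle above the earlier ones in 35 of 45 assays with at least 5 positive cells in each part, and within day 5 in 25 of 42. Of the 11 higher assays, 3 (Lgals1, Tnfrsf1b and Actb) kept at least 1 cycle in all 4 pairings. Of the 7 lower assays 0 did, but some pairings had fewer than 5 positive cells in a part. In the pairings with at least 5, Foxp1 (-2.24 to -1.45), Bnip3l (-4.36 to -2.19) and Grap2 (-1.66) kept at least 1 cycle. These pairings did not cover both parts of each day. Foxp1 had 4 positive cells in the later day 5 columns, so only the lower, earlier day 5 columns were used. Bnip3l had 4 in the earlier day 3 columns, so only the higher, later day 3 columns were used. For Grap2 only earlier day 5 against later day 3 columns could be compared. Among the higher assays, Lef1 (2.34 to 6.72) also kept at least 1 cycle, but only against the lower, earlier day 3 columns. The later day 3 columns had 4 Lef1-positive cells. Divided instead at the largest step in value along the columns, day 5 before against day 3 after the step gave -3.17 cycles for Lef1. The part of the columns in the height differences was not tested. A mean level over all cells took each value as its cycles above 12, with 0 for cells without detection or with a value under 12. This level was at least 1 cycle higher at day 5 in 10 of 95 assays (10.5%) and lower in 6 (6.32%), 16.8% in all.

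**Figure D3:**
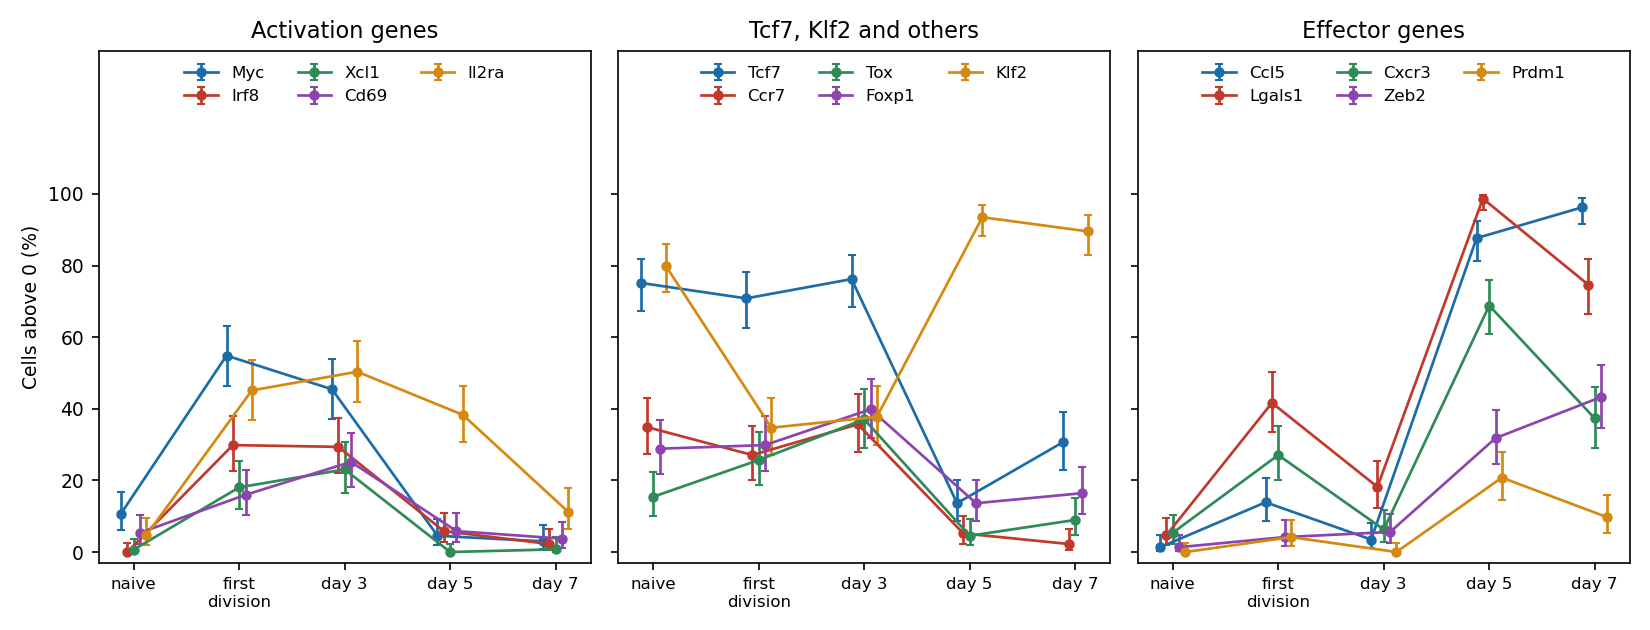
Share of cells above 0 (y axis, percent) in naive, first-division, day 3, day 5 and day 7 unsorted cells for 15 genes, with exact 95% binomial intervals. Myc, Irf8, Xcl1 and Cd69 are higher at the first division and day 3 than in naive cells and at most 5.84% from day 5, Klf2 is low at the first division and day 3, and the 5 effector genes are highest at day 5 or day 7.

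The populations before and after placed these differences in time. They are 1 sample each, with 2000000 dye-labelled cells transferred for the first division at day 2, 5000 for day 7, and no number given for naive cells. In the order naive, first division, day 3, day 5 and day 7, Myc was found in 10.7%, 54.9%, 45.5%, 4.55% and 2.99% of cells. Irf8, Xcl1 and Cd69 were likewise more frequent at the first division and day 3 than in naive, day 5 or day 7 cells. Irf8 was found in 0 of 149 naive cells (up to 2.01%), then in 29.9%, 29.4%, 5.84% and 2.24%, and Cd69 in 5.37%, 16.0%, 25.2%, 5.84% and 3.73%. Il2ra was slower, with 4.70%, 45.1%, 50.3%, 38.3% and 11.2%. The intervals of days 3 and 5 overlapped (41.9 to 58.8% and 30.6 to 46.5%), which is no test of a difference. Its day 5 share was lower in every pairing of column parts (-22.6 to -1.59 points).

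Tcf7 was found in 75.2% of naive, 70.8% of first-division and 76.2% of day 3 cells, which did not differ beyond their intervals, then in 13.6% at day 5 and 30.6% at day 7 (22.9 to 39.1%). Klf2 was found in 79.9%, 34.7%, 37.8%, 93.5% and 89.6%, so its day 5 share came after a low at the first division and day 3. In the same order Ccl5 was found in 1.34%, 13.9%, 3.50%, 87.7% and 96.3% of cells, and Zeb2 in 1.34%, 4.17%, 5.59%, 31.8% and 43.3%. Cxcr3 had its highest share at day 5 (5.37%, 27.1%, 6.29%, 68.8% and 37.3%). Il2rb (43.3% at day 7), Ifngr1 (36.6%) and Lgals1 (74.6%) were also at least 20 points less frequent at day 7 than at day 5. Lgals1 and Cxcr3 were more frequent in first-division than in day 3 cells (41.7 against 18.2% and 27.1 against 6.29%). With values of at least 12 alone, Lgals1 was found in 20.1% of first-division, 0% of day 3, 76.6% of day 5 and 7.46% of day 7 cells, and Ccl5 in 0% of first-division cells.

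**Figure D4:**
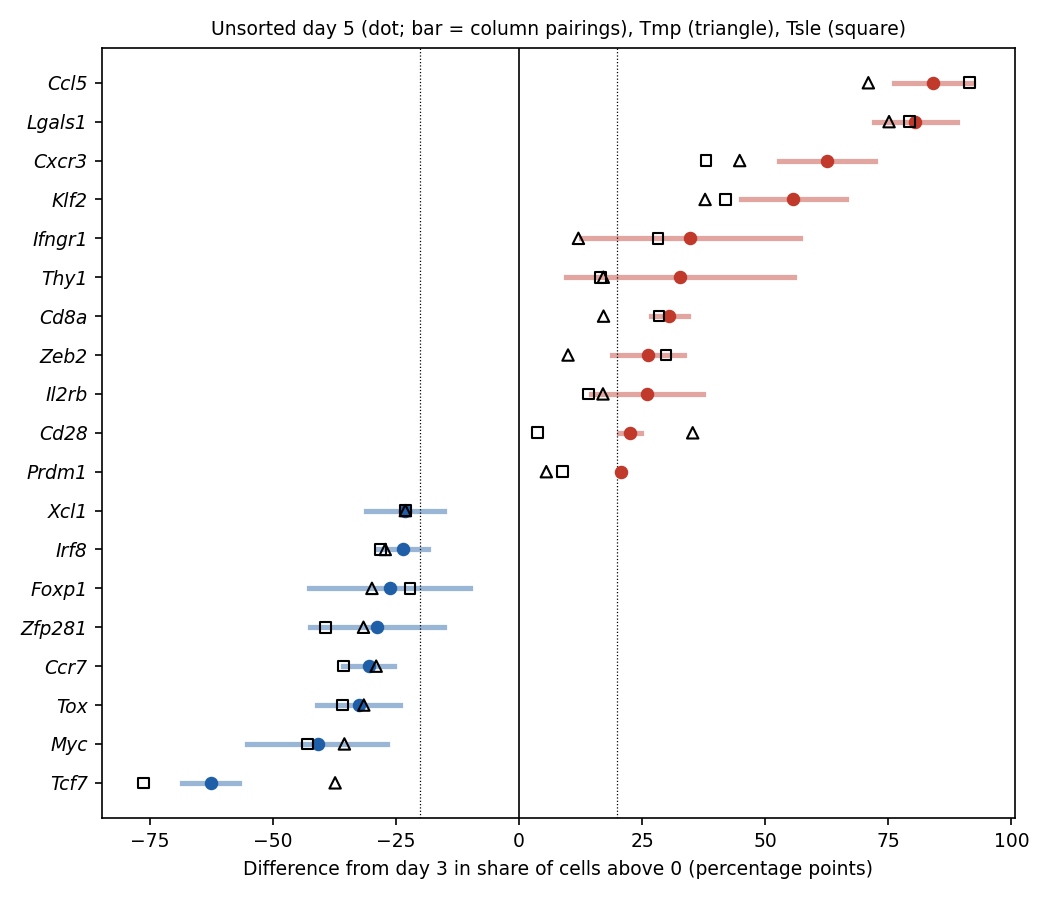
Difference from day 3 in share of cells above 0 (x axis, percentage points) for 19 genes at least 20 points apart in unsorted cells. Dots are unsorted day 5 cells, bars the range over the 4 pairings of column parts, triangles day 5 Tmp and squares day 5 Tsle cells; Tcf7 and Cd28 have the widest gaps between triangle and square.

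Day 5 memory precursor (Tmp, 90 cells) and short-lived effector (Tsle, 79 cells) populations were separate samples of the same day, sorted by gates not given in the sources used here, and were set against the same day 3 cells. Myc was found in 9 of 90 Tmp cells and 2.53% of Tsle cells, Tox in 5.56% and 1.27%, Irf8 in 2.22% and 1.27%, and Xcl1 in 0 of 90 (up to 3.33%) and 0 of 79 (up to 3.80%), each far below day 3. Ccl5 was found in 74.4% and 94.9%, Lgals1 in 93.3% and 97.5%, and Klf2 in 75.6% and 79.7%, each above the day 3 share. With values of at least 12 alone, however, Ccl5 was found in 38.9% of Tmp cells and, as at day 3, in no Tsle cell, where its median was 8.45. Cxcr3, at 51.1% and 44.3%, lay above day 3 and below the 68.8% of unsorted day 5 cells. Prdm1 was found in 5.56% of Tmp and 8.86% of Tsle cells, below the 20.8% of unsorted cells.

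Tcf7 separated the sorted cells, at 38.9% of Tmp cells (28.8 to 49.7%) and 0 of 79 Tsle cells (up to 3.80%), with unsorted day 5 cells between them. Zeb2 was found in 15.6% of Tmp and 35.4% of Tsle cells, Il2ra in 21.1% and 36.7%, and Cd28 in 55.6% and 24.1%, the last close to the 20.3% of day 3. Il2rb (61.1% and 58.2%), Thy1 (50.0% and 49.4%) and Prdm1 (5.56% and 8.86%) were less than 20 points above day 3 in both sorted populations. In Tmp cells so were Ifngr1 (34.4%), Cd8a (44.4%) and Zeb2. The Cd8a values of Tmp cells were all under 12 (median 7.78), so that at that limit none of them had Cd8a, against 26.6% of day 3 cells.

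**Figure D5:**
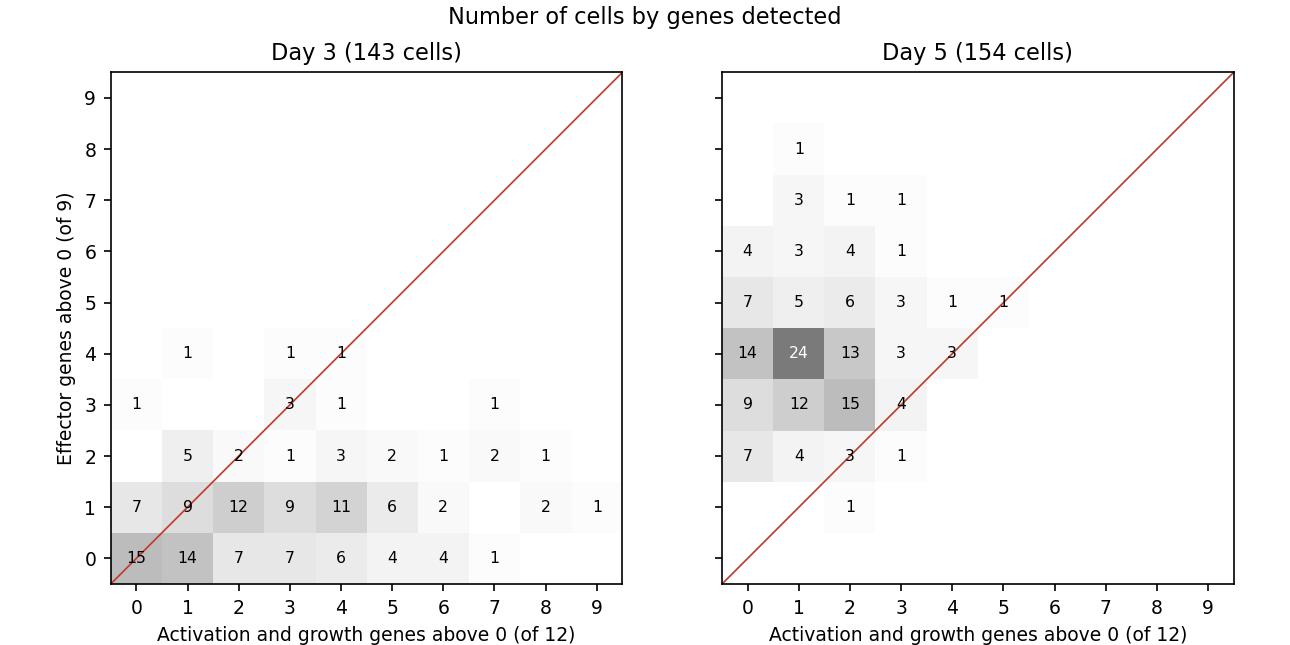
Number of cells (figures in the squares, shaded by number) by how many of 12 early activation and growth genes (x axis) and 9 effector and cytotoxic genes (y axis) were above 0, for day 3 and day 5. Day 3 cells spread along the x axis and day 5 cells sit above the red line of equal numbers in 141 of 154 cells.

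The lists were also counted cell by cell. Of the 12 early activation and growth genes (Il2 counted by 1 row), a day 3 cell had a median of 2 (range 0 to 9) and a day 5 cell 1 (0 to 5). Of the 9 effector and cytotoxic genes, a day 3 cell had a median of 1 (0 to 4) and a day 5 cell 4 (1 to 8). More activation than effector genes were found in 98 of 143 day 3 cells (68.5%, 60.2 to 76.0%) and 2 of 154 day 5 cells (1.299%, 0.16 to 4.61%). More effector than activation genes were found in 15 day 3 cells (10.5%, 5.99 to 16.7%) and 141 day 5 cells (91.6%, 86.0 to 95.4%). No effector gene was found in 58 day 3 cells and in 0 day 5 cells. Cells with at least 3 genes of each list were few on both days, 7 at day 3 (4.90%) and 17 at day 5 (11.04%). The effector list holds the genes with the largest differences of the panel, so these numbers describe how they were spread over cells and are no separate evidence of them.

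Pairs of genes were examined within cells. At day 5, 16 of the 21 Tcf7-positive cells (76.2%, 52.8 to 91.8%) also had Ccl5, as did 119 of the 133 others (89.5%, 83.0 to 94.1%), and 18 of the 21 (85.7%, 63.7 to 97.0%) had Cxcr3 against 88 of 133 (66.2%, 57.5 to 74.1%). Zeb2 was found in 8 of the 21 (38.1%, 18.1 to 61.6%) and 41 of the 133 (30.8%, 23.1 to 39.4%). The intervals overlapped for each of the 3 genes, which is no test of a difference, and there were only 21 Tcf7-positive cells. For Ccl5 the column parts differed, with 13 of 14 Tcf7-positive cells in the earlier columns (92.9%, others 92.1%) and 3 of 7 in the later ones (42.9%, others 87.1%).

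Myc and Il2ra went together at day 3. Il2ra was found in 46 of 65 Myc-positive cells (70.8%, 58.2 to 81.4%) and 26 of 78 others (33.3%, 23.1 to 44.9%), with 69.0 and 37.9% in the earlier and 73.9 and 30.6% in the later columns. Myc-positive cells had more assays above 0 (median 18 against 14), and the part of this in the result was not tested. At day 5, Ccl5 was found in 45 of 59 Il2ra-positive cells (76.3%, 63.4 to 86.4%) and in 90 of the 95 without Il2ra (94.7%, 88.1 to 98.3%), although the former had more assays above 0 (median 19 against 17). Within day 5 the same order held in the earlier (80.8 and 98.0%) and later columns (72.7 and 90.9%).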

How the data were processed

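Single CD8+ T cells were sorted into a reverse transcription and preamplification mix, amplified for 18 cycles with pooled TaqMan assays, diluted 5-fold and read on a BioMark instrument, per the labels' protocols. The deposited values are on a log2 scale (cycles), with 0 for no detection. The labels call them Ct, but 18S RNA and Actb have the highest values, so they were read as 40 minus Ct, an inferred offset, and no normalization between cells is recorded. Of 95 rows, 93 were matched by accession to RefSeq (GRCm38.p6), used for names and the promoter windows.

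Shares of cells above 0 (exact 95% intervals, at least 20 points) and medians of detected cells (at least 10 per day, at least 1 cycle) were compared between the days, and scripts were tested on simulated data. The text names assays at least 20 points apart, the 12 largest median differences each way, and members of the lists; members and lists were chosen with earlier results of these data known. Promoters of Xcl1 and Cxcl10 were chosen later, in place of Ccl4 and Ccl5, and the counts include 2 genes left unnamed. Precision is set by 143 and 154 cells. Alternatives were detection limits, cell filters, column parts, centring, sorted day 5 cells and thresholds. Intervals came from scipy 1.17.1 under Python 3.11.15, arrays from numpy 2.4.6 and plots from matplotlib 3.10.9.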

Additional observations from a re-analysis of the deposited data

How the results depend on the processing

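Of the 21 genes at least 20 points apart in share, 20 kept their sign in all 17 alternatives run on shares; the exception was Cd28, at -0.90 points with a detection limit of 14. Against 12 assays higher by share, the count was 19 with the earlier columns of both days, 19 with earlier day 5 against later day 3 columns, and 19 for day 5 before against day 3 after the largest step in value along the columns, a division chosen after seeing the data. Against 9 lower, it was 14 for day 5 after against day 3 before that step, and 5 at 30 points.

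By median value in positive cells, 8 of the 18 genes at least 1 cycle apart kept their sign in all alternatives that gave a value. Against 11 higher and 7 lower, the counts were 5 and 4 with values of at least 12, 6 and 19 centred on Actb and Gapdh, and 6 and 18 centred on 18S. They were 19 and 11 with at least 5 positive cells, 18 and 11 at 0.5 cycles and 5 and 2 at 2 cycles. By columns they were 19 and 4 (earlier of both), 4 and 21 (earlier day 5, later day 3) and 27 and 0 (later day 5, earlier day 3). By the step they were 20 and 3 (before it in both), 4 and 22 (day 5 before, day 3 after) and 28 and 0 (day 5 after, day 3 before). With Tmp cells they were 7 and 4. The number higher was 7 in the later columns of both and 5 without the 17 assays uneven between column parts. The number lower was 4 with means, 3 with at least 20 positive cells and 3 with Tsle cells. Mean level over all cells (cycles above 12) gave 10 higher and 6 lower, and the log2 of mean linear amounts 27 and 19. The cause of these shifts was not tested.

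Median differences that changed sign did so mainly between column parts. Centred on Actb and Gapdh, Foxo1 was at -0.15, Mapk14 at 0.71, Ptprc at -0.57 and R18s at -0.17 cycles, and centred on 18S Ptprc was at -0.045. With Tmp cells Ptprc was at -0.53. In the earlier columns of both, Foxo3 was at 0.66 and Mapk14 at 0.31, and in the later columns of both Mapk14 at 0.13 and Ptprc at -0.49. With earlier day 5 against later day 3 columns, Foxo1 was at -0.12, Psmb7 at -1.78, Stat4 at -1.04 and Ptprc at -1.24. With later day 5 against earlier day 3 columns, Foxo3 was at 3.59, Mapk14 at 3.10 and Tcf7 at 0.43. Before the step in both, Foxo3 was at 0.64 and Mapk14 at 0.31, and after it in both Mapk14 at 0.13, Psmb7 at -0.086 and Ptprc at -0.47. For day 5 before against day 3 after the step, Foxo1 was at -0.24, Lef1 at -3.17, Psmb7 at -2.10, Stat4 at -0.78 and Ptprc at -1.22. For day 5 after against day 3 before it, Foxo3 was at 3.70, Mapk14 at 3.10 and Tcf7 at 0.64. No paired analysis was possible because each day is 1 sample.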
